A study of Mus musculus with 16 samples.

Results

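The genes described here are 36 genes of glycolysis and of the response to low oxygen, taken from a fixed list of names and matched to mouse Entrez identifiers, out of the 24467 genes listed in each library. They comprise 15 glycolytic enzymes, 3 transporters, 3 regulators of glycolytic flux, the hypoxia-inducible factor gene Hif1a with 2 of its hydroxylases, and 12 other hypoxia-inducible genes. The enolase genes were not among them. No measured value entered the list, but it was drawn up with earlier results of these data known. All 36 were present in the files and all 36 passed the expression filter.

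Messenger RNA was sequenced in bulk from cancer cells sorted by flow cytometry out of mouse pancreatic tumours, which had been raised by placing KPC 7TCF-eGFP/Porcn-DMA pancreatic ductal adenocarcinoma (PDAC) cells in the pancreas of host mice. Every group carries the same line and so the same reporters. The line's clonality, the hosts' strain and age and the make-up of Porcn-DMA are unstated in the labels. The 7TCF-eGFP reporter places green fluorescent protein under TCF binding sites and serves as a readout of WNT/beta-catenin transcription. The groups are DP (positive for GFP and mScarlet), GFP (positive for GFP alone), mScarlet (positive for mScarlet alone) and DN (positive for neither), with 4 libraries each, described as 4 mice per group. The design text names WNT-responsive, WNT-secreting, double-positive and double-negative cells. No label states in words that the mScarlet gate is the WNT-secreting population, so the groups are called here by their fluorescence. No treatment was applied in any group, as far as the labels state.

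Glycolysis converts glucose to pyruvate in the cytosol, and lactate dehydrogenase converts pyruvate to lactate, which monocarboxylate transporters carry out of the cell. Hypoxia-inducible factor (HIF) is a transcription factor whose alpha subunit is marked for destruction by oxygen-dependent prolyl hydroxylases, so it accumulates when oxygen is scarce. Many glycolytic enzymes are HIF targets together with genes of oxygen sensing, mitophagy, acid balance and collagen modification. PDAC tissue is known to be poorly perfused and to rely heavily on glycolysis. HIF binds the short core ACGTG or GCGTG in promoters and enhancers, also called the hypoxia response element.

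Library totals lay between 80647185 and 104273669 counts, with 15476 to 17805 genes detected (at least 1 count). Levels are given as CPM, counts relative to a common library total, scaled by the TMM method. The labelled epithelial identity was checked against 8 markers, whose summed level was 28700 to 37560 CPM in DP, 16050 to 32020 CPM in GFP, 29330 to 45390 CPM in mScarlet and 25950 to 28880 CPM in DN. The keratins Krt8, Krt18 and Krt19 made up most of it, whereas the epithelial adhesion gene Epcam was near 0, with means of 0.23 CPM in DP, 7.37 CPM in GFP, 0.119 CPM in mScarlet and 0.229 CPM in DN. Its highest library, of the GFP group, held 28.98 CPM. Marker sums of other cells, apart from neutrophils, were highest in single GFP libraries. The neutrophil sum was highest in DN 1 at 497.2 CPM, followed by mScarlet 1 at 478.5, DP 1 at 350.3 and GFP 1 at 207.1 CPM. Macrophage markers summed to 24310 CPM in GFP 1, and acinar and fibroblast markers to 17400 and 9101 CPM in GFP 4.

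Promoters of 34 of the 36 genes were found in the RefSeq promoter table of GRCm38.p6, each window running from 250 bases before to 50 bases after an annotated start. The windows of the 4 genes with the lowest adjusted p in DP vs DN are shown to let the HIF core be seen in place, with each ACGTG or GCGTG on either strand in capitals (CACGT and CACGC on the printed strand being their complements). Where the table held more than 1 window of a gene, as for Pkm and Ldha, the window with the most matches is shown.
Pkm, chr9:59656977-59657276, plus strand: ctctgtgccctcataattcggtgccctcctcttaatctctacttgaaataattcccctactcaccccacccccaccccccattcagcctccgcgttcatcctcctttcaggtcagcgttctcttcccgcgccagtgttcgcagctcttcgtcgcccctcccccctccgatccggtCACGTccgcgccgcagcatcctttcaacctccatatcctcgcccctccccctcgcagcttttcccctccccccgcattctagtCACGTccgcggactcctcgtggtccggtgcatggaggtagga
Ldha, chr7:46845554-46845853, plus strand: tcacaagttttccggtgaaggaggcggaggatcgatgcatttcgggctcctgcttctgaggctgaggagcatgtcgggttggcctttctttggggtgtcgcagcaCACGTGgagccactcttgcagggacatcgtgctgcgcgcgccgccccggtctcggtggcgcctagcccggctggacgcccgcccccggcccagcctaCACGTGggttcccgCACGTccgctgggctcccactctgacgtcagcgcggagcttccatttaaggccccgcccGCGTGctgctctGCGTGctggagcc
Tpi1, chr6:124814109-124814408, minus strand: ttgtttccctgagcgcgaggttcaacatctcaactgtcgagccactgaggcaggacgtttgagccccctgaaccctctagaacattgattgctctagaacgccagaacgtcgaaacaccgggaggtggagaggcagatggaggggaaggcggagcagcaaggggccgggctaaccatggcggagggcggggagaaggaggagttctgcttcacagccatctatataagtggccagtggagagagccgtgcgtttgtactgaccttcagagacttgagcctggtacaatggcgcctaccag
Pfkl, chr10:78009758-78010057, minus strand: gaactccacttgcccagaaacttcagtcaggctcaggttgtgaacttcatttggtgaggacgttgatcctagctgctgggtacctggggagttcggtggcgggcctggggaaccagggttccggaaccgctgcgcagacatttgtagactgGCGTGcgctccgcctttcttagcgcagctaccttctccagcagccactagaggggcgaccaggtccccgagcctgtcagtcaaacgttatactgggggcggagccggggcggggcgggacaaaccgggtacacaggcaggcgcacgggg
The Ldha window held 7 matches, among which CACGTG, a palindrome read once on each strand, occurred at a pair of places. The Pkm window held 2, the Pfkl window 1 and the Tpi1 window 0. At least 1 window with a match was found for 32 of the 34 genes (94.1%), against 62.5% of the 12598 tested genes with a window and 46.7% of all 27025 genes in the table. The list was made of genes that include HIF targets, so its higher share is no result of these data. A gene with more windows also had more chances of a match, with 50 windows for the 34 genes and 32851 for all 27025. Gpi1 and Tpi1 were the 2 without one, and both were called lower in DP and in mScarlet relative to DN. Of the genes called in any comparison, 11 of 13 held the core, as did 21 of the 21 genes with a window that were called in none.

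Enzymes of glycolysis were lower in mScarlet-positive cells, both DP and mScarlet, than in DN cells, with 8 of 15 called in DP vs DN and 9 of 15 in mScarlet vs DN. In mScarlet vs DN, 12 of the 36 genes fell and 0 rose at an adjusted p under 0.05, where 0.695% of all 15963 genes tested were called lower. These were Gpi1, Pfkl, Pfkp, Aldoa, Tpi1, Gapdh, Pgam1, Pkm, Ldha, Pdk1, Egln1 and P4ha2. In DP vs DN, 11 fell and 0 rose, against 1.71% of all genes called lower, and the 11 were Gpi1, Pfkl, Aldoa, Tpi1, Gapdh, Pgam1, Pkm, Ldha, Slc2a1, Pdk1 and P4ha2. In DP vs GFP, Gpi1, Pfkl and Pkm fell, which is 3 of 36 against 0.363% of all genes. In GFP vs mScarlet, Gpi1, Pfkl, Pkm and P4ha2 were called higher, which is 4 of 36 against 1.06% of all genes.

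Median log2 fold changes of the 36 genes were -0.867 in mScarlet vs DN, -0.727 in DP vs DN, -0.691 in DP vs GFP, and 0.701 for GFP vs mScarlet, while the medians over all tested genes were -0.003, 0.022, -0.037 and 0.015. In all, 13 genes were called in at least 1 comparison and 23 in none. These comparisons share groups in part, so their counts are not independent. The counts moved with single libraries. In mScarlet vs DN the count was 0 without mScarlet 1, without mScarlet 3 or without DN 1, and 3 without mScarlet 2 or without DN 4. Calls over all genes then numbered 23 without mScarlet 1, 34 without mScarlet 3, 17 without DN 1, 48 without mScarlet 2 and 56 without DN 4, against 188 with every library. In DP vs DN it was 4 to 7 without any 1 of DP 1, DP 2, DP 3, DN 1 and DN 4, and 17 without DP 4. Calls over all genes in DP vs DN were then 119 without DP 1, 158 without DP 2, 159 without DP 3, 105 without DN 1, 169 without DN 4 and 314 without DP 4, against 371 with every library.

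Markers of stromal cells also differed between these groups. The 8 fibroblast markers summed to 26.68 to 268.5 CPM in DP, 607.3 to 9101 CPM in GFP, 17.54 to 87.78 CPM in mScarlet and 134.6 to 1426 CPM in DN. In mScarlet vs DN 8 of 8 were negative and 1 was called lower, in DP vs DN 8 of 8 were negative and 0 called by edgeR, and in GFP vs mScarlet 4 of 8 were called higher. In DP vs GFP, 8 of 8 fibroblast markers (median log2 fold change -4.12), 10 of 10 macrophage, 7 of 7 endothelial and 8 of 8 acinar markers (median -6.69) were negative, with 0 called by edgeR. Lum, Pdgfra, Pdgfrb and Postn were each at 0 in at least 1 library. The 10 macrophage markers summed to 2216 to 6354 CPM in DP, 1030 to 24310 CPM in GFP, 1262 to 2254 CPM in mScarlet and 945.8 to 3494 CPM in DN, with 0 called. The 7 endothelial markers summed to 10.29 to 12.59 CPM in DP, 11.66 to 53.77 CPM in GFP, 9.66 to 12.48 CPM in mScarlet and 18.25 to 28.39 CPM in DN, with 0 called. In DP vs DN 9 of 10 macrophage markers (median log2 fold change 1.63) and 4 of 7 endothelial markers were positive. All 8 acinar markers were negative there. In mScarlet vs DN 9 of 10 macrophage and 6 of 7 endothelial markers were negative, and 5 of 8 acinar markers positive. Of the 6 neutrophil, 8 lymphocyte, 8 acinar and 3 erythroid markers tested, 0 were called in these 4 comparisons by edgeR. The part of these cells in the lower glycolytic levels was not tested. In bulk libraries fewer cells with a high level and less RNA per cell cannot be told apart.

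**Figure D1:**
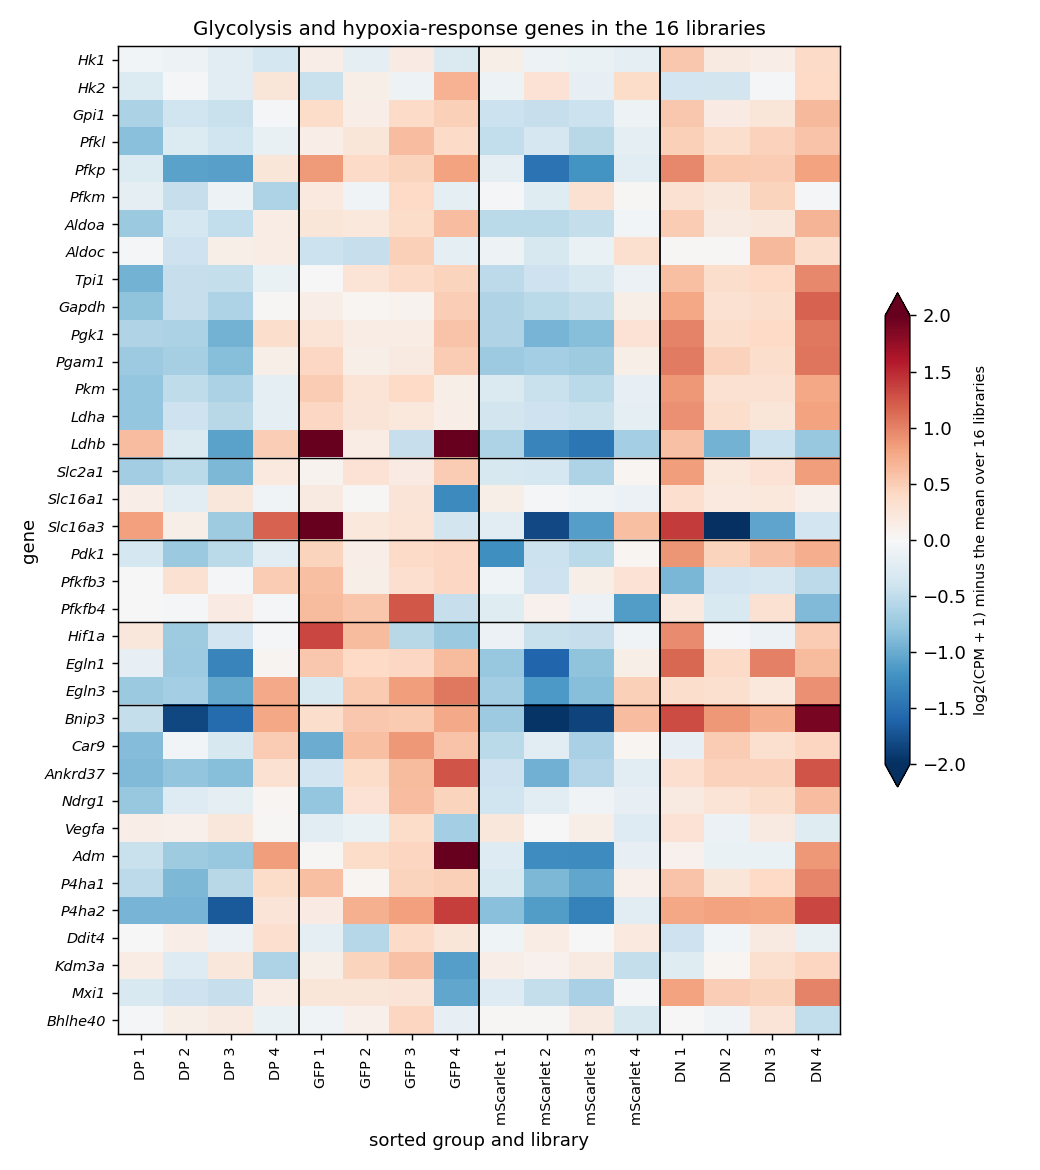
Heat map of the 36 genes (rows, by role) in the 16 libraries (columns, DP, GFP, mScarlet and DN), coloured by log2(CPM + 1) minus the gene's mean over the libraries. Most enzyme rows are blue in DP 1 to 3 and in the mScarlet columns and red in GFP and DN, and DP 4 and mScarlet 4 are paler than their groups.

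Among the enzymes of the upper part of glycolysis, Gpi1, Pfkl and Aldoa fell in DP and in mScarlet relative to DN, Pfkp fell in mScarlet, and Pfkm, Aldoc, Hk1 and Hk2 were not called. Gpi1, which turns glucose phosphate into fructose phosphate, was at 443.2, 525.1, 507.1 and 670.5 CPM in DP, 891.2, 758.8, 899.6 and 964.9 CPM in GFP, 510.3, 499.9, 512.6 and 645.4 CPM in mScarlet, and 1010, 772.9, 814.8 and 1085 CPM in DN. All 8 mScarlet-positive libraries, of DP and mScarlet together, lay below all 8 GFP and DN libraries. The gene was called in DP vs DN (log2 fold change -0.78, SE 0.15, adjusted p = 0.0137), mScarlet vs DN (log2 fold change -0.76, SE 0.15, adjusted p = 0.025), DP vs GFP (log2 fold change -0.71, SE 0.15, adjusted p = 0.0471) and GFP vs mScarlet (log2 fold change 0.70, SE 0.15, adjusted p = 0.0367).

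Pfkl, the liver-type phosphofructokinase that commits sugar to glycolysis, was at 421.2, 621.1, 569.2 and 673.4 CPM in DP, 819.1, 890.5, 1148 and 973.2 CPM in GFP, 530.8, 592.5, 507.8 and 650.9 CPM in mScarlet, and 1046, 951.7, 1035 and 1113 CPM in DN. Again no mScarlet-positive library reached the lowest of the GFP and DN libraries. It was 1.81-fold lower in DP than DN (adjusted p = 0.00767), 1.82-fold lower in mScarlet than DN (adjusted p = 0.013) and 1.68-fold lower in DP than GFP (adjusted p = 0.0395). Pfkp, the platelet-type isoenzyme, was at 59.76, 33.88, 33.63 and 86.15 CPM in DP, 132.2, 94.78, 98.76 and 126.9 CPM in GFP, 63.06, 25.27, 31.13 and 61.82 CPM in mScarlet, and 142.6, 104.3, 104 and 127.1 CPM in DN. Its groups kept apart in the same way, but the libraries within DP and mScarlet differed by more than 2-fold, and it was called in mScarlet vs DN (log2 fold change -1.40, SE 0.32, adjusted p = 0.0484) and not in DP vs DN (log2 fold change -1.16, SE 0.32, adjusted p = 0.0761). Pfkm, the muscle-type isoenzyme, was lower in all 4 DP libraries than in DN with no call (log2 fold change -0.59, SE 0.18, adjusted p = 0.0969) and overlapped between mScarlet and DN (log2 fold change -0.22, SE 0.17, adjusted p = 0.632). Reads of Pfkp and Pfkm overlap the genes Pitrm1 and Senp1, and counting by strand is not stated, so they cannot be fully told apart.

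Aldoa, the main aldolase outside liver and brain, was at 1297, 1690, 1545 and 2392 CPM in DP, 2562, 2518, 2808 and 3340 CPM in GFP, 1491, 1494, 1565 and 2091 CPM in mScarlet, and 3083, 2464, 2526 and 3462 CPM in DN. The DP and mScarlet libraries all lay below DN and GFP, with DP 4 closest to them at 2392 CPM. The calls were close to the threshold in DP vs DN (log2 fold change -0.74, SE 0.19, adjusted p = 0.0495) and in mScarlet vs DN (log2 fold change -0.80, SE 0.19, adjusted p = 0.0488), and they were kept in 10 and 13 of 25 alternative settings, with both lost when mScarlet 1, 2 or 3, DP 2 or 3, GFP 2 or 3 or any 1 DN library was left out. Aldoc, the brain-type aldolase, averaged 153 ± 25.2 CPM in DP, 146 ± 49.7 CPM in GFP, 152 ± 30.1 CPM in mScarlet and 191 ± 41.3 CPM in DN (SD, n = 4) and was not called in any comparison.

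Hexokinase phosphorylates glucose on entry. Hk1, the widely expressed form, averaged 246 ± 22.1 CPM in DP, 271 ± 42.3 CPM in GFP, 264 ± 25.9 CPM in mScarlet and 347 ± 47.1 CPM in DN, and every DP and every mScarlet library lay below every DN library. Its change was -0.49 (SE 0.14, adjusted p = 0.075) in DP vs DN and -0.40 (SE 0.14, adjusted p = 0.185) in mScarlet vs DN on the log2 scale, neither called. Hk2, the form best known from tumours and muscle, overlapped between all groups, with log2 fold changes of 0.01 in DP vs DN (95% interval -0.50 to 0.51) and 0.18 in mScarlet vs DN (95% interval -0.32 to 0.68).

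Tpi1, and Gapdh, Pgam1, Pkm and Ldha of the lower part that leads to pyruvate and lactate, fell in DP and in mScarlet relative to DN. Tpi1, which interconverts the triose phosphates, was at 1328, 1872, 1855 and 2338 CPM in DP, 2556, 3106, 3359 and 3516 CPM in GFP, 1782, 1933, 2049 and 2374 CPM in mScarlet, and 3884, 3288, 3371 and 4989 CPM in DN. Its DP and mScarlet libraries lay below every GFP and DN library. Its call in DP vs DN (log2 fold change -1.07, SE 0.18, adjusted p = 0.00619) held in 25 of 25 alternative settings, and it was also called in mScarlet vs DN (log2 fold change -0.93, SE 0.18, adjusted p = 0.0206). In DP vs GFP it was not called (log2 fold change -0.76, SE 0.18, adjusted p = 0.0599).

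Gapdh, glyceraldehyde phosphate dehydrogenase, which is often used as a reference gene, was at 1909, 2432, 2183 and 3379 CPM in DP, 3653, 3436, 3507 and 4662 CPM in GFP, 2198, 2288, 2400 and 3621 CPM in mScarlet, and 5694, 4115, 4234 and 7555 CPM in DN. DN 4 was the highest of the 16 libraries, and DP 4 and mScarlet 4 were the highest of their groups. It fell 2.18-fold in DP (adjusted p = 0.0163) and 2.06-fold in mScarlet (adjusted p = 0.0387) relative to DN. Pgam1, phosphoglycerate mutase, was at 494.7, 515.8, 452.3 and 886.7 CPM in DP, 1092, 891.1, 925.4 and 1167 CPM in GFP, 497.9, 512.1, 502.6 and 889.3 CPM in mScarlet, and 1689, 1135, 1051 and 1723 CPM in DN. It fell 2.38-fold in DP and 2.33-fold in mScarlet relative to DN (adjusted p = 0.0145 and 0.0269), and the libraries numbered 4 were well above the other 3 in both. Between these enzymes stands Pgk1, phosphoglycerate kinase, at 124 ± 55.1 CPM in DP, 197 ± 28.1 CPM in GFP, 118 ± 52.6 CPM in mScarlet and 267 ± 68.9 CPM in DN. Its log2 fold changes were as large, at -1.10 (SE 0.30, adjusted p = 0.0733) in DP vs DN and -1.18 (SE 0.30, adjusted p = 0.072) in mScarlet vs DN, but DP 4 at 205.3 CPM overlapped the DN libraries and neither passed the threshold.

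Pkm, pyruvate kinase, whose M1 and M2 splice forms are not separated in these counts, was at 2041, 2456, 2252 and 3038 CPM in DP, 4931, 4183, 4572 and 3787 CPM in GFP, 2837, 2547, 2402 and 3088 CPM in mScarlet, and 6325, 4304, 4283 and 5969 CPM in DN. Every DP and mScarlet library was below every GFP and DN library. This was the lowest adjusted p of the 36 genes in DP vs DN (log2 fold change -1.09, SE 0.16, adjusted p = 0.00392), and Pkm was called as well in mScarlet vs DN (log2 fold change -0.94, SE 0.16, adjusted p = 0.013), DP vs GFP (log2 fold change -0.84, SE 0.16, adjusted p = 0.0347) and GFP vs mScarlet (log2 fold change 0.68, SE 0.16, adjusted p = 0.0469). Ldha, which reduces pyruvate to lactate, was at 1961, 2513, 2269 and 2955 CPM in DP, 4479, 4007, 3879 and 3651 CPM in GFP, 2599, 2501, 2444 and 2945 CPM in mScarlet, and 6309, 4278, 3944 and 5846 CPM in DN. GFP libraries stood between, above all mScarlet-positive libraries and overlapping the lower DN libraries. Ldha fell 2.1-fold in DP vs DN (adjusted p = 0.00395), with a log2 fold change in DP vs GFP of -0.72 (SE 0.16, adjusted p = 0.0519), not called. Its calls, and those of Pkm and Pfkl, in DP vs DN were kept in 25 of 25 alternative settings, while in mScarlet vs DN all 3 were lost without mScarlet 1, mScarlet 3 or DN 1. Ldhb, the heart-type subunit, was near 0 in most libraries, at 3.186, 1.228, 0.2904 and 2.809 CPM in DP, 13.31, 2.011, 0.9822 and 35.79 CPM in GFP, 0.7756, 0.0906, 0 and 0.692 CPM in mScarlet, and 3.066, 0.4102, 1.018 and 0.6021 CPM in DN. The high values were those of GFP 4 and GFP 1, the libraries with the highest acinar and macrophage marker sums, and the part of those cells in Ldhb was not tested. A count of 0 in mScarlet 3 allows up to 0.0337 CPM.

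**Figure D2:**
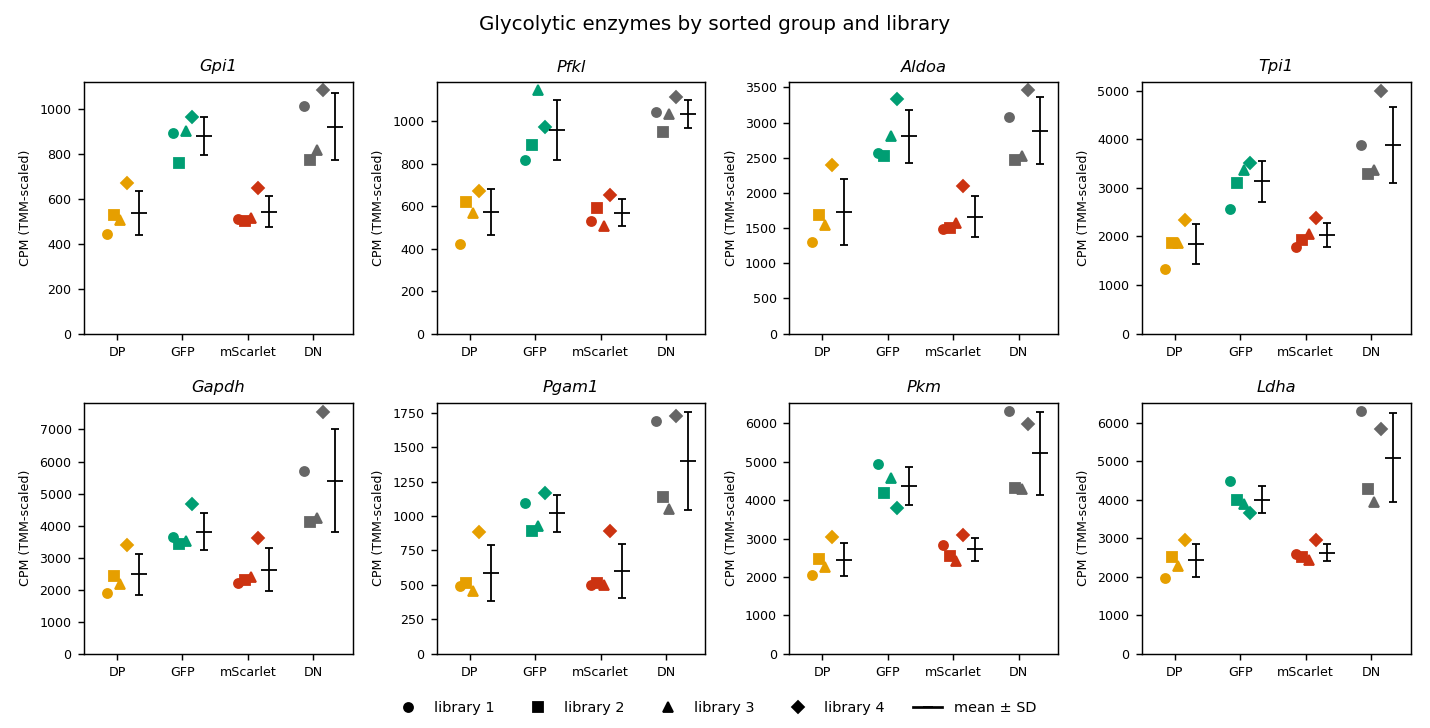
Levels in TMM-scaled CPM (vertical axes from 0) of 8 glycolytic enzymes in each library of the DP, GFP, mScarlet and DN groups, with mean ± SD (n = 4) beside the points and a marker shape for each library number. In each panel the DP and mScarlet points lie below the DN points, and GFP points lie above those of DP.

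Since near-identical processed copies of Gapdh, Pgk1, Pgam1, Ldha, Tpi1 and Aldoa exist in the mouse genome, reads may have been exchanged with them in the authors' counting, and these levels are uncertain to that extent. Tpi1 also overlaps Spsb2, which held 68355 counts over all libraries against 3931971 for Tpi1.

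Isoenzyme balance was compared per kilobase of exon. Pfkl made up 86.0% ± 3.92 in DP, 85.6% ± 2.49 in GFP, 85.4% ± 2.91 in mScarlet and 85.8% ± 1.1 in DN of the summed phosphofructokinase level (SD, n = 4), so the predominant isoenzyme had nearly the same share in each group while its level differed. Its mean level per kilobase was 153 in DP, 257 in GFP, 153 in mScarlet and 278 in DN (CPM per kilobase). Aldoa held 94.7% ± 1.36 in DP, 96.9% ± 0.984 in GFP, 94.7% ± 0.332 in mScarlet and 96.0% ± 1.14 in DN of the aldolase level. In hexokinase Hk1 held 76.5% ± 4.43 in DP, 75.8% ± 8.83 in GFP, 75.5% ± 4.71 in mScarlet and 82.2% ± 4.19 in DN. P4ha2 supplied 72.3% ± 7.36 in DP, 81.8% ± 6.52 in GFP, 73.8% ± 1.81 in mScarlet and 82.2% ± 1.47 in DN of the 2 collagen prolyl hydroxylase alpha subunits measured. That share was at most 75.5% in mScarlet libraries, below every DN library, the lowest of which had 80.4%. Egln3 held 71.2% ± 7.82 in DP, 69.8% ± 9.23 in GFP, 72.7% ± 3.35 in mScarlet and 64.1% ± 8.5 in DN of the summed Egln1 and Egln3 level. Shares carry no test, and the members of a family were measured in the same libraries.

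Transporters showed 1 call. Slc2a1, the basal glucose transporter GLUT1 of many epithelia and tumours, was at 288.9, 323.3, 249.7 and 536.7 CPM in DP, 490.3, 574.1, 521.9 and 662.5 CPM in GFP, 373.7, 365.1, 304.7 and 480.2 CPM in mScarlet, and 836.5, 543.1, 573.8 and 838 CPM in DN. All DP and mScarlet libraries lay below all DN libraries, with DP 4 at 536.7 CPM just under DN 2 at 543.1 CPM. It fell 2-fold in DP relative to DN (log2 fold change -1.0, SE 0.23, adjusted p = 0.0313) and was not called in mScarlet vs DN (log2 fold change -0.87, SE 0.23, adjusted p = 0.074). DP and mScarlet themselves differed by -0.12 (SE 0.23), so the calls of these 2 comparisons do not show that they differ. Slc16a1, a monocarboxylate transporter that moves lactate in both directions, averaged 94.9 ± 13.3 CPM in DP, 87.5 ± 33.9 CPM in GFP, 91.5 ± 6.45 CPM in mScarlet and 108 ± 7.56 CPM in DN. Its log2 fold change was -0.19 in DP vs DN (95% interval -0.69 to 0.31) and -0.24 in mScarlet vs DN (95% interval -0.74 to 0.26), and the lowest library was GFP 4 at 37.76 CPM. Slc16a3, the lactate exporter most linked to glycolytic cells, was at 69.72, 42.57, 23.45 and 89.41 CPM in DP, 369.4, 45.51, 47.17 and 29.99 CPM in GFP, 33.32, 10.49, 17.65 and 59.85 CPM in mScarlet, and 104.2, 7.815, 18.36 and 29.78 CPM in DN. GFP 1, with 369.4 CPM, stood far above the other GFP libraries, and GFP 1 also held the highest macrophage marker sum. The part of macrophage RNA in this value was not tested, and no Slc16a3 difference was called. The gene overlaps Csnk1d, with 221698 counts over all libraries against its own 92558, which cannot be told apart from it without strand.

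Of the 3 regulators of flux, Pdk1 was called. Pdk1, the kinase that switches off pyruvate dehydrogenase and so holds pyruvate back from the mitochondrion, was at 20.19, 15.1, 17.51 and 22.02 CPM in DP, 35.63, 28.66, 34.02 and 34.83 CPM in GFP, 10.47, 19.03, 17.51 and 26.57 CPM in mScarlet, and 48.75, 35.48, 39.55 and 43.45 CPM in DN. Its highest mScarlet-positive library, mScarlet 4 at 26.57 CPM, was below the lowest GFP library. Pdk1 fell 2.23-fold in DP and 2.27-fold in mScarlet relative to DN (adjusted p = 0.0141 and 0.0215). In DP vs GFP its log2 fold change was -0.83 (SE 0.23, adjusted p = 0.086).

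Pfkfb3, a bifunctional enzyme that makes the fructose bisphosphate activating phosphofructokinase, had positive log2 fold changes against DN, with no call. Its levels were 19.78, 24.84, 19.48 and 28.79 CPM in DP, 30.68, 21.82, 25.4 and 26.97 CPM in GFP, 18.88, 14.66, 21.64 and 24.71 CPM in mScarlet, and 10.07, 15.11, 15.58 and 13.49 CPM in DN. Every DP and every GFP library lay above every DN library, and mScarlet overlapped DN. The log2 fold change was 0.78 (SE 0.21, adjusted p = 0.0664) in DP vs DN. It was 0.95 (SE 0.21, adjusted p = 0.278) in GFP vs DN and 0.56 (SE 0.21, adjusted p = 0.221) in mScarlet vs DN. None was called by edgeR in the model of the 4 groups over all 16 libraries. DESeq2 called Pfkfb3 higher in DP vs DN and in GFP vs DN. In DP vs DN edgeR also called it higher with the replicate number as a block, and without GFP 1 and GFP 4 together. In the interaction, which asks whether mScarlet-positive and mScarlet-negative cells differ in the same way with and without GFP, it gave -0.73 (SE 0.29, unadjusted p = 0.0237, adjusted p = 1). Pfkfb4, a related isoenzyme, averaged 20.2 ± 1.36 CPM in DP, 30.8 ± 14 CPM in GFP, 16.1 ± 5.37 CPM in mScarlet and 18.5 ± 6.66 CPM in DN and was not called.

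HIF and its regulators gave 1 call. Hif1a, the oxygen-labile alpha subunit, was at 28.71, 14.61, 18.41 and 24.04 CPM in DP, 63.12, 38.21, 16.39 and 14.18 CPM in GFP, 22.55, 17.67, 17.55 and 23.12 CPM in mScarlet, and 48.03, 24.08, 22.32 and 35.03 CPM in DN. It was higher in single GFP and DN libraries, GFP 1 and DN 1, the groups overlapped, and its log2 fold changes were -0.59 (SE 0.40, adjusted p = 0.52) in DP vs DN and -0.68 (SE 0.40, adjusted p = 0.472) in mScarlet vs DN. HIF activity is set largely at the protein, which was not measured. Egln1, the main prolyl hydroxylase that marks HIF alpha in normal oxygen and itself a HIF target, was at 44.17, 29.5, 19.36 and 51.57 CPM in DP, 72.56, 65.48, 66.43 and 77.63 CPM in GFP, 29.03, 15.9, 28.05 and 53.92 CPM in mScarlet, and 111.1, 65.26, 100.6 and 77.58 CPM in DN. No DP or mScarlet library reached the lowest GFP or DN value. It was called in mScarlet vs DN (log2 fold change -1.48, SE 0.33, adjusted p = 0.0429) and missed the threshold narrowly in DP vs DN (log2 fold change -1.29, SE 0.33, adjusted p = 0.051). Egln3, a hydroxylase strongly induced in low oxygen, was at 50.53, 52.58, 41.46 and 145 CPM in DP, 69.01, 122.4, 152.8 and 178.2 CPM in GFP, 51.98, 37.87, 46.52 and 118.2 CPM in mScarlet, and 108.6, 106.1, 99.17 and 162 CPM in DN. DP 4 and mScarlet 4 were at 145 and 118.2 CPM, against 37.87 to 52.58 CPM in the other 6 mScarlet-positive libraries, so the groups overlapped and no difference was called (log2 fold change -0.90, SE 0.43, adjusted p = 0.355 in mScarlet vs DN).

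Of the 12 other hypoxia-inducible genes, P4ha2 was called, 9 had negative log2 fold changes in DP vs DN and 10 in mScarlet vs DN, and several were spread widely within groups. P4ha2, an alpha subunit of the collagen prolyl hydroxylase of the endoplasmic reticulum, was at 55.15, 55.32, 32.44 and 127.2 CPM in DP, 119.9, 175.7, 189 and 279.7 CPM in GFP, 59.41, 48.46, 41.02 and 91.88 CPM in mScarlet, and 183.3, 186.1, 185.4 and 269.1 CPM in DN. DN and GFP libraries were above all mScarlet libraries, and DP 4 overlapped the lowest GFP library. It fell 3.05-fold in DP and 3.42-fold in mScarlet relative to DN (log2 fold change -1.61, SE 0.37, adjusted p = 0.0329 in DP vs DN and log2 fold change -1.77, SE 0.37, adjusted p = 0.0325 in mScarlet vs DN), and was 3.17-fold higher in GFP than mScarlet (adjusted p = 0.0385). P4ha1, its partner isoform, averaged 41.7 ± 18 CPM in DP, 69.6 ± 11.4 CPM in GFP, 37.7 ± 14.3 CPM in mScarlet and 78.4 ± 17.9 CPM in DN and was not called (log2 fold change -1.06 (SE 0.29, adjusted p = 0.091) in mScarlet vs DN).

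Bnip3, a mitophagy receptor of the mitochondrial outer membrane, was at 56.08, 21.42, 26.38 and 135 CPM in DP, 100.4, 114.1, 112.8 and 132.5 CPM in GFP, 47.04, 19.38, 21.01 and 120.4 CPM in mScarlet, and 195.4, 143.3, 130.1 and 296.2 CPM in DN. Its mScarlet libraries all lay below DN, and its DP libraries did so except DP 4. Its log2 fold change in mScarlet vs DN, the lowest of the 36 genes, was -1.88 (SE 0.63, adjusted p = 0.18), not called. The mScarlet libraries ran from 19.38 to 120.4 CPM, and in every group Bnip3 was highest in the library numbered 4. Ankrd37, a small ankyrin-repeat gene induced by HIF, was at 14.66, 15.67, 15.03 and 34.56 CPM in DP, 21.09, 36.2, 43.79 and 67.64 CPM in GFP, 20.69, 13.74, 18.26 and 23.84 CPM in mScarlet, and 35.4, 38.53, 38.86 and 68.17 CPM in DN. Every DP and mScarlet library lay below every DN library, with log2 fold changes of -1.18 (SE 0.36, adjusted p = 0.102) in DP and -1.24 (SE 0.36, adjusted p = 0.101) in mScarlet relative to DN. Adm, which encodes the vasodilator adrenomedullin, was at 16.69, 13.85, 13.29 and 42.24 CPM in DP, 23.63, 30.06, 31.58 and 137.5 CPM in GFP, 19.19, 9.205, 9.112 and 20.51 CPM in mScarlet, and 24.58, 21.16, 20.97 and 43.2 CPM in DN. The mScarlet libraries lay below DN and GFP, GFP 4 stood far above all others at 137.5 CPM, and no difference was called. The acinar and fibroblast marker sums were also highest in GFP 4, and their part in this value was not tested.

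Mxi1, an antagonist of MYC, was at 38.13, 35.62, 34.27 and 53.13 CPM in DP, 56.6, 56.36, 57.37 and 22.65 CPM in GFP, 39.69, 33.93, 29.99 and 46.33 CPM in mScarlet, and 84.3, 67.17, 65.04 and 95.73 CPM in DN. It was lower in every library of DP, GFP and mScarlet than in every DN library, with log2 fold changes of -0.95 (SE 0.26, adjusted p = 0.0692) in DP, -0.69 (SE 0.26, adjusted p = 0.451) in GFP and -1.06 (SE 0.26, adjusted p = 0.0596) in mScarlet, each relative to DN and none called. Ndrg1, a stress-response gene linked to differentiation, averaged 683 ± 148 CPM in DP, 962 ± 338 CPM in GFP, 709 ± 67.1 CPM in mScarlet and 1053 ± 141 CPM in DN, with its mScarlet and DP libraries all below DN and log2 fold changes of -0.63 (SE 0.23, adjusted p = 0.19) in DP vs DN and -0.57 (SE 0.23, adjusted p = 0.266) in mScarlet vs DN. Car9, the carbonic anhydrase of the cell surface that handles acid, averaged 246 ± 96.6 CPM in DP, 353 ± 152 CPM in GFP, 212 ± 47.2 CPM in mScarlet and 324 ± 62.2 CPM in DN and overlapped between groups. Car9 and Ankrd37 overlap other genes (Tpm2 and Arhgef39, and Ufsp2), whose reads cannot be told apart without strand.

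The last 4 genes had log2 fold changes nearer 0. Vegfa, the angiogenic growth factor, averaged 253 ± 15 CPM in DP, 214 ± 64.3 CPM in GFP, 238 ± 33 CPM in mScarlet and 240.0 ± 41.8 CPM in DN, with log2 fold changes of 0.08 in DP vs DN (95% interval -0.32 to 0.47) and -0.01 in mScarlet vs DN (95% interval -0.41 to 0.38). Ddit4, an inhibitor of mTOR complex signalling, gave 0.18 (95% interval -0.21 to 0.58) and 0.16 (95% interval -0.24 to 0.56) in the same comparisons. Bhlhe40, a transcriptional repressor of the clock, gave 0.09 (95% interval -0.26 to 0.45) and 0.04 (95% interval -0.31 to 0.40). Kdm3a, a histone demethylase, gave -0.25 (95% interval -0.91 to 0.40) and -0.16 (95% interval -0.82 to 0.49). For Vegfa, Ddit4 and Bhlhe40 these intervals lie inside 0.6 in either direction, whereas that of Kdm3a reaches -0.91.

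**Figure D3:**
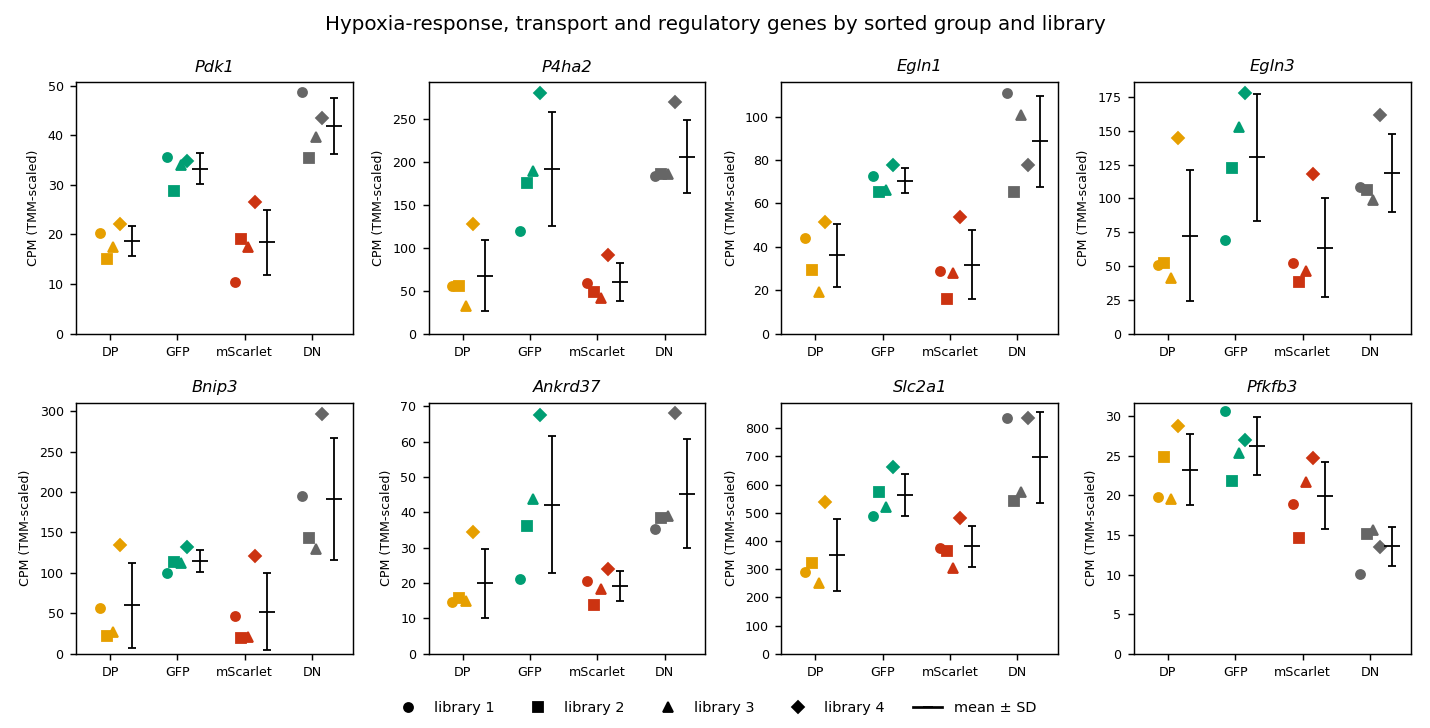
Levels in TMM-scaled CPM (vertical axes from 0) of Pdk1, P4ha2, Egln1, Egln3, Bnip3, Ankrd37, Slc2a1 and Pfkfb3 in each library of the DP, GFP, mScarlet and DN groups, with mean ± SD (n = 4) beside the points. DP 4 and mScarlet 4 (diamonds) lie above the other libraries of their groups for Egln3, Bnip3 and P4ha2, and Pfkfb3 is higher in DP and GFP than in DN.

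The libraries numbered 4 were high for many of these genes, most clearly in DP and mScarlet and least in GFP. The highest library of the group was number 4 for 27 of the 36 genes in DP, 15 in GFP, 26 in mScarlet and 18 in DN. In GFP, library 3 was the highest for 13 genes. GFP 4 was the lowest GFP library for others, such as Pkm, Ldha and Mxi1. The median of log2(CPM + 1) minus the mean over libraries, taken over the 36 genes, was 0.13 in DP 4 and -0.40 to -0.48 in the other DP libraries, and -0.06 in mScarlet 4 and -0.31 to -0.50 in the other mScarlet libraries. It was 0.19 to 0.44 in GFP and 0.23 to 0.64 in DN, so every mScarlet-positive library stayed below every mScarlet-negative one by this median. Sample titles hold the word Sorted, the number and the gate, with the same 4 numbers in each group. Beyond that the labels do not say what a number stands for. Whether libraries of the same number come from the same mouse is not stated.

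Between GFP and DN, 0 of the 36 genes were called, as were 0% of all genes tested by edgeR. At an unadjusted p under 0.05 there were 6 of the 36 (Hk1, Gapdh, Ldha, Ldhb, Pfkfb3 and Mxi1) and 1551 of all genes, and DESeq2 called 1 of the 36, Pfkfb3, with 295 of all genes. Ldha differed by -0.35 (SE 0.16, 95% interval -0.69 to -0.01) and Gpi1 by -0.07 (95% interval -0.39 to 0.25). Between DP and mScarlet, 0 genes were called by edgeR, 0 of the 36 had an unadjusted p under 0.05 and 460 of all genes did, and DESeq2 called 0 of the 36 and 68 of all genes. Here Ldha differed by -0.11 (95% interval -0.45 to 0.23), Pkm by -0.15 (95% interval -0.49 to 0.19), Pfkl by 0.00 (95% interval -0.31 to 0.32) and P4ha2 by 0.17 (95% interval -0.60 to 0.93). The interval of P4ha2 is the widest of the 4.

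Across the mScarlet gate, 2 comparisons share no library, mScarlet vs DN among GFP-negative cells and DP vs GFP among GFP-positive cells. Both hold libraries of the same 4 numbers, and whether a number marks a mouse is not stated, so they may not be independent. Of the 36 genes, 29 had negative log2 fold changes in both, 1 was positive in both (Ddit4) and 6 had opposite signs. Gpi1, Pfkl and Pkm were called in both. All 4 DP libraries lay below all 4 GFP libraries for 11 genes, against 4.58% of all genes tested, and all mScarlet libraries below all DN libraries for 21, against 6.06%. In DP vs DN it was 18, against 7.37%, and in GFP vs mScarlet all GFP libraries were above all mScarlet libraries for 14, against 5.22%. The interaction, which tests the difference of these 2 comparisons, called 0 of the 36 and 0% of all genes by edgeR, with 2 of the 36 (Pfkfb3 and Mxi1) and 525 of all genes at an unadjusted p under 0.05, and DESeq2 called 0 of the 36 and 54 of all genes. In DP vs GFP the count of 3 fell to 0 without any 1 of DP 1, DP 2, DP 3, mScarlet 2, GFP 1, GFP 4 and DN 4, to 1 without DN 2, and was 8 without DP 4. Calls over all genes in DP vs GFP, 90 with every library, were then 1 without DP 1, DP 2, DP 3 or GFP 1, 7 without GFP 4, 14 without DN 4, and 31 without mScarlet 2 or DN 2. The 4 calls in GFP vs mScarlet fell to 0 without mScarlet 1, 2 or 3 or without GFP 4, were 1 or 2 without DP 1, DP 2 or GFP 1, and stood at 9 without mScarlet 4. Over all genes there were 245 calls with every library, against 6, 19 and 18 without mScarlet 1, 2 and 3 and 71 without GFP 4.

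**Figure D4:**
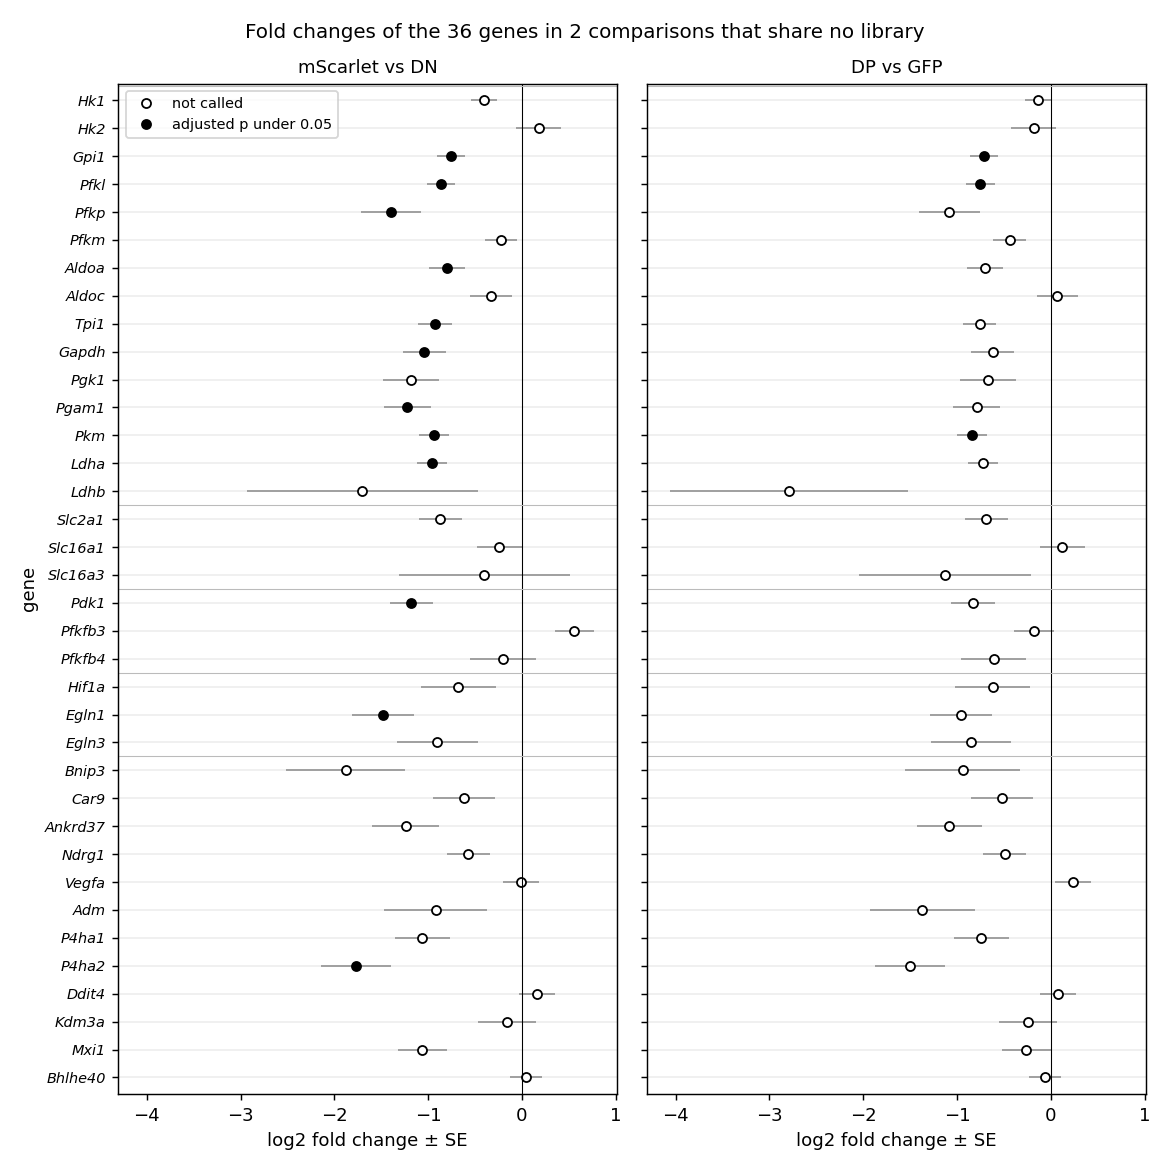
Log2 fold changes (horizontal axes, ± SE) of the 36 genes by role in mScarlet vs DN (left) and DP vs GFP (right), with filled points for an adjusted p under 0.05. In mScarlet vs DN 12 points are filled and 32 lie left of 0, and in DP vs GFP 3 are filled and 32 lie left of 0.

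Other genes of the pathway, from lists drawn up with earlier results of these data known, were read in the same comparisons. Of 20 other glycolysis genes tested, 1 fell and 1 rose both in DP vs DN, with 14 of 20 positive, and in mScarlet vs DN, with 13. Pgm1, phosphoglucomutase, which links glycogen to glycolysis, averaged 170.4 ± 32.6 CPM in DP, 286 ± 29.9 CPM in GFP, 162 ± 29.3 CPM in mScarlet and 367 ± 56.8 CPM in DN (SD, n = 4), and its change was -1.11 (SE 0.16, adjusted p = 0.00392) in DP vs DN and -1.18 (SE 0.16, adjusted p = 0.00339) in mScarlet vs DN. Galm, which interconverts the anomers of galactose and glucose, rose, at 96.6 ± 5.55 CPM in DP, 47.9 ± 15.2 CPM in GFP, 83.3 ± 1.93 CPM in mScarlet and 34.1 ± 10.4 CPM in DN, with 1.5 (SE 0.23, adjusted p = 0.00395) in DP vs DN and 1.29 (SE 0.23, adjusted p = 0.0136) in mScarlet vs DN. Of 13 genes of pyruvate entry into the mitochondrion, 0 were called in any of these comparisons by edgeR. Pdk3, another pyruvate dehydrogenase kinase, was closest, at -1.36 (SE 0.35, adjusted p = 0.0522) in DP vs DN and -1.46 (SE 0.35, adjusted p = 0.0551) in mScarlet vs DN.

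Of 12 genes of the pentose phosphate pathway and gluconeogenesis, 0 were called against DN. The gluconeogenic phosphatase Fbp2 averaged 83.9 ± 8.16 CPM in DP, 36.5 ± 15.4 CPM in GFP, 84.4 ± 7.63 CPM in mScarlet and 46.7 ± 4.96 CPM in DN, and it was called in DP vs GFP, where it was higher in DP, at 1.20 (SE 0.23, adjusted p = 0.0346). In GFP vs mScarlet it was called lower, at -1.21 (SE 0.23, adjusted p = 0.0274). Of 11 further genes of the HIF machinery, 0 were called, with Epas1, the gene of the other main HIF alpha subunit, at 0.48 (SE 0.26, adjusted p = 0.394) in DP vs DN and 0.72 (SE 0.26, adjusted p = 0.205) in mScarlet vs DN. Of 23 other hypoxia-inducible genes tested, 19 had negative log2 fold changes in DP vs DN and 19 in mScarlet vs DN, with a median of -0.68 in each. Of all tested genes, 48.2% were negative in DP vs DN and 50.3% in mScarlet vs DN. Of these 23 genes, 2 were called in DP vs DN and 1 for mScarlet vs DN. Gys1, glycogen synthase, fell in both, at -0.87 (SE 0.15, adjusted p = 0.00671) in DP vs DN and -0.83 (SE 0.15, adjusted p = 0.0136) in mScarlet vs DN. Jmjd6, a Jumonji-family hydroxylase, fell in DP vs DN, at -0.92 (SE 0.21, adjusted p = 0.0276), and stood at -0.68 (SE 0.20, adjusted p = 0.127) in mScarlet vs DN. Angptl4, a secreted lipase inhibitor, was at -1.18 (SE 0.30, adjusted p = 0.0506) in DP vs DN, and Ero1a, an oxidase of the endoplasmic reticulum, at -1.78 (SE 0.45, adjusted p = 0.0703) in mScarlet vs DN. All 4 glucose-sensing genes were positive against DN in both, and 0 were called. Arrdc4, an arrestin-like gene induced by glucose, was at 0.65 (SE 0.17, adjusted p = 0.0582) in DP vs DN, and Txnip, its relative, at 0.62 (SE 0.28, adjusted p = 0.287).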

How the data were processed

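For each of 16 libraries the authors deposited unscaled read counts of genes, keyed by Entrez identifier. Per the submitters' processing notes, STAR, DESeq2 1.24.0 and the build GRCm38 (mm10) were used. The sources used here do not give the counter, the annotation or the use of strand. Per the labels' protocols, cDNA was amplified by PCR from low input, without molecular identifiers, so floors (3 counts) cover counting error only.

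Symbols came from a RefSeq gene table of GRCm38.p6, which matched 24437 of 24467 identifiers. The 30 others (0.723% to 1.93% of the counts) were kept in the totals. Genes were tested with edgeR 4.0.16 (R 4.3.3), by its quasi-likelihood method with robust empirical Bayes, in 1 model of the 4 groups over all 16 libraries, following edgeR's filter by group (minimum count 10, 15963 genes tested) and TMM scaling. P-values were Benjamini-Hochberg adjusted over all tested genes and called under 0.05. All adjusted p-values are edgeR's unless another tool is named. Fold changes carry their standard error (SE) or 95% interval, and levels are TMM-scaled CPM (SD, n = 4). No replicates agreed within sampling noise (lowest chi-square per degree of freedom 91.8). The fit was checked on simulated counts.

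The 36 genes and the pathway and marker lists were chosen with earlier results of these data known. All 36 genes were named. Of each pathway list, the text gives its counts and up to 4 genes with the lowest adjusted p in DP vs DN or mScarlet vs DN. Exon lengths came from GENCODE M21 (GRCm38), and gene spans from the RefSeq gene table. Figures were drawn with matplotlib. Alternatives were DESeq2 1.42.0, limma 3.58.1 voom with and without quality weights, RLE scaling, no filter, the replicate number as a block, the 8 libraries of each comparison alone, each library left out in turn and, chosen after seeing the data, no robust step.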

Additional observations from a re-analysis of the deposited data

Results flagged for a closer look

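In groups of 4 libraries, 16 of 144 gene and group combinations had 1 library set apart from the other 3 by Dixon's test at its 95% level, where chance flags about 1 in 20 groups, or 5%. The genes share libraries, so the flags are not independent. In DP, library 4 was the highest for Pgam1 (886.7 CPM, others 452.3 to 515.8), Egln3 (145 CPM, others 41.46 to 52.58), Ankrd37 (34.56 CPM, others 14.66 to 15.67) and Adm (42.24 CPM, others 13.29 to 16.69), and library 3 for Pfkfb4 (22.22 CPM, others 19.3 to 19.79). In GFP, library 1 was the highest for Slc16a3 (369.4 CPM, others 29.99 to 47.17) and library 4 for Adm (137.5 CPM, others 23.63 to 31.58), while Mxi1 was lowest in library 4 (22.65 CPM, others 56.36 to 57.37). In mScarlet, library 4 was the highest for Gpi1 (645.4 CPM, others 499.9 to 512.6), Aldoa (2091 CPM, others 1491 to 1565), Gapdh (3621 CPM, others 2198 to 2400) and Pgam1 (889.3 CPM, others 497.9 to 512.1). In DN, library 4 was the highest for Egln3 (162 CPM, others 99.17 to 108.6), Ankrd37 (68.17 CPM, others 35.4 to 38.86), Adm (43.2 CPM, others 20.97 to 24.58) and P4ha2 (269.1 CPM, others 183.3 to 186.1). No cause was tested.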

How the results depend on the processing

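None of the called gene and comparison pairs reversed its direction in any alternative that was run, though uncalled genes did, such as Slc16a3 in mScarlet vs DN (-0.40, and 0.01 with the replicate block). Of the 36 genes 0 were called in DP vs mScarlet or in the interaction by any alternative, where DESeq2 called 68 and 54 of all genes. With DESeq2 the counts of the 36 genes called were 21 in DP vs DN (1146 of all genes), 13 in DP vs GFP (1099), 1 in GFP vs DN (295), 15 in GFP vs mScarlet (1665) and 18 in mScarlet vs DN (891). Pfkfb3 was called higher in DP vs DN and in GFP vs DN, and the other DESeq2 calls in DP vs DN were lower. RLE scaling gave 5 in DP vs GFP (137 of all genes) and limma voom 5 (86). Voom with quality weights gave 21 in DP vs DN (924 of all genes). Fits of the 8 libraries alone gave 0 in DP vs GFP (1 of all genes) and 0 in GFP vs mScarlet (2). The unfiltered fit gave 2 in GFP vs mScarlet (141 of all genes). Without GFP 1 and GFP 4 together the count in DP vs DN was 17 (761 of all genes), with Pfkfb3 higher and the others lower. It was then 0 in DP vs GFP (1 of all genes) and 0 in GFP vs mScarlet (2). Leaving out each library in turn gave 0 to 17 in mScarlet vs DN (17 to 362 of all genes), 4 to 17 in DP vs DN (105 to 532), 0 to 8 in DP vs GFP (1 to 297) and 0 to 9 in GFP vs mScarlet (6 to 524). The cause of these shifts was not tested, beyond the smaller number of libraries in the fits that left some out.

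With the replicate number as a block, 19 of the 36 were called in mScarlet vs DN, 22 in DP vs DN, 20 in DP vs GFP and 21 for GFP vs mScarlet, where 5.42%, 6.37%, 5.09% and 7.45% of all genes were. The calls in DP vs DN were lower apart from Pfkfb3, which was higher. Those in mScarlet vs DN and DP vs GFP were all lower, and those in GFP vs mScarlet all higher. In DP vs GFP the calls with the block held genes not called without it, such as Pgk1, Slc2a1, Bnip3, Ankrd37 and P4ha1. In mScarlet vs DN they held Bnip3, at a log2 fold change of -2.18 (SE 0.36, adjusted p = 0.00463 by edgeR with the block). As a hint from the data, all 16 libraries correlated best with libraries of their own number. Same-number pairs had a median correlation of 0.294 against -0.137 for other pairs, and 23 of 24 exceeded 0.1, the lowest being 0.092. No label says that a number marks a mouse, and what same-numbered libraries share is not stated. Depth limits Ldhb, where a count of 0 allows up to 0.0337 CPM in mScarlet 3.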
